A study of Mus musculus with 25 samples.

Results

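The genes described here are Fam13a, Grb14, Cobll1, Lyplal1, Tbx15 and Rspo3, whose human counterparts lie at loci tied by association studies to where body fat is stored. They were chosen by name, with earlier results of these data known. Each was read from the transcript cluster with the highest mean among the clusters carrying only that symbol. All 6 were found, each with 1 cluster, among 22180 genes measured. Fam13a was put first because its low level after 12 weeks of high-fat feeding was known from an earlier analysis of these arrays, so that difference is given as a description without a test.

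RNA was taken from gonadal white adipose tissue of 25 male mice heterozygous for apoE3L.CETP, that is, carrying the ApoE3Leiden and human CETP transgenes, and all groups, controls included, shared this genotype. A high-fat diet (HFD; 60% fat, 20% carbohydrate, 20% protein and 0.25% cholesterol) was given for 4 weeks (3 mice, age 16 weeks), 8 weeks (4 mice, age 20 weeks) or 12 weeks (4 mice, labelled 34 weeks old). A low-fat diet (LFD; 10% fat, 70% carbohydrate and 20% protein) was given for the same times to 4 mice each, with the same labelled ages, and 2 mice on chow were sampled at the age of 12 weeks, before the diets began. Because feeding began at the age of 12 weeks, the label of 34 weeks does not match a 12-week diet, and groups are named by time on diet. Each mouse was measured on 1 Affymetrix Mouse Gene 2.0 ST array, and levels are log2 array values, in which a difference of 1 is a doubling.

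Gonadal fat stores triglyceride inside the abdomen, and loci for fat distribution are thought to act largely through adipocytes and their progenitors. The genes at such loci do not form a single pathway. FAM13A has been linked in adipocytes to insulin signalling and fat cell differentiation. GRB14 is an adaptor that binds the activated insulin receptor and dampens its signal. COBLL1 is related to the actin nucleator Cordon-bleu, and its gene lies next to Grb14. LYPLAL1 has the fold of an acyl-protein thioesterase. TBX15 is a T-box transcription factor of mesenchymal development and depot identity, and RSPO3 is a secreted R-spondin that strengthens Wnt signalling by protecting Frizzled receptors from removal.

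The tissue label was met by its defining markers: Adipoq (adiponectin) lay between 10.62 and 11.80 and Plin1 (the lipid droplet coat protein perilipin) between 10.43 and 12.32 over the 25 arrays. Array medians lay between 5.04 and 5.36. Some arrays carried liver transcripts: 23 measured hepatocyte genes averaged 9.20 to 10.98 in 11 arrays, all from 8 and 12 weeks, and 5.31 to 7.57 in the other 14. The 11 arrays were HFD arrays 2, 3 and 4 and LFD arrays 1 and 2 at 8 weeks, and HFD arrays 1, 2 and 4 and LFD arrays 1, 2 and 4 at 12 weeks. Epididymis genes (13 of 15 measured) were high in 3 first arrays, with averages of 10.03 at 4 weeks of HFD, 5.51 at 4 weeks of LFD and 11.77 on chow, and chow array 1 also had the lowest mean of 14 adipocyte markers, 11.06. Without the epididymis arrays, the 4-week differences between diets described below were −1.50 for Fam13a (limma adjusted p = 0.194), −0.21 for Lyplal1, −0.38 for Rspo3, −0.18 for Cobll1, −0.01 for Grb14 and 0.00 for Tbx15, none called.

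Fam13a was lower under HFD at each time on diet. The HFD arrays at 4 weeks read 9.12, 9.95 and 8.37, against 10.16, 10.42, 10.73 and 10.83 in the LFD arrays. At 8 weeks the HFD arrays read 7.77, 8.87, 8.61 and 8.84, against 10.50, 10.48, 10.50 and 10.10 in the LFD arrays. At 12 weeks the HFD arrays read 7.54, 8.59, 9.40 and 8.96, against 10.69, 10.59, 10.71 and 10.26 in the LFD arrays. The 2 diets did not overlap at any time: all 11 HFD arrays lay between 7.54 and 9.95 and all 12 LFD arrays between 10.10 and 10.83. The HFD arrays were also the more spread, with an SD of 0.79 at 4 weeks, 0.51 at 8 weeks and 0.79 at 12 weeks, against 0.30, 0.20 and 0.21 in the LFD arrays of the same times.

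The differences were estimated with limma from 1 fit of all 25 arrays, and p values were adjusted by Benjamini-Hochberg over the 22180 genes, with an adjusted p under 0.05 called. At 8 weeks Fam13a fell by 1.87 ± 0.38 (log2, ± standard error, limma adjusted p = 0.0108), to 27.3% of the LFD level, where 2.4% of all genes were called and 1.24% were called lower. At 4 weeks the difference was −1.39 ± 0.41, or 38.2% of the LFD level, and was not called (limma adjusted p = 0.228), at a time when 0.212% of all genes were called. At 12 weeks it was −1.94 ± 0.38, or 26.1% of the LFD level, given as a description. Among all genes Fam13a ranked 9 from the lowest difference at 4 weeks and at 8 weeks. Genes whose HFD arrays lay wholly below the LFD arrays at 4, 8 and 12 weeks numbered 97, or 0.437% of those measured, and Fam13a and Lyplal1 were the members among them; for Fam13a this uses the 12-week values that put it first, so nothing is read from that share. Whether the 3 differences of Fam13a differ from each other was not tested.

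**Figure D1:**
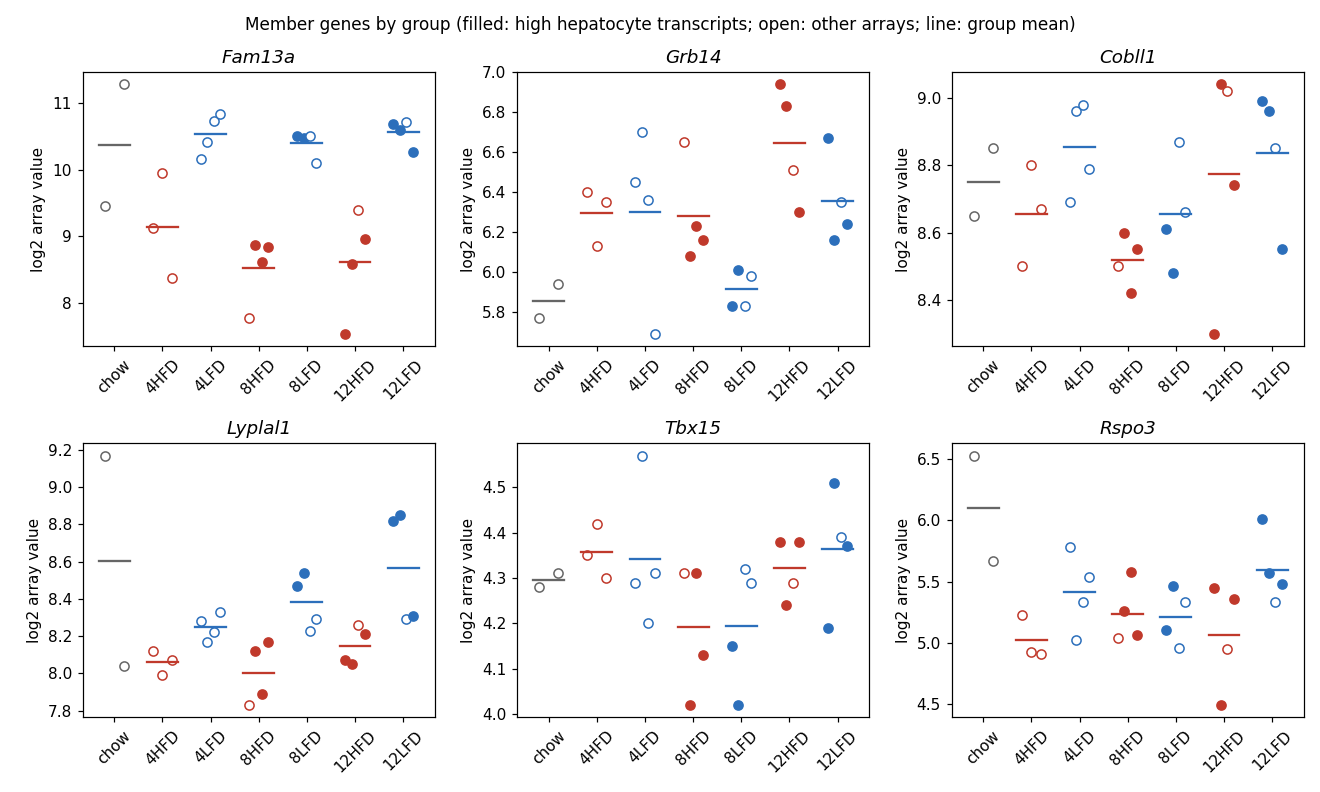
Log2 array value of each member gene (vertical axes, which differ between panels) in the 7 groups, 1 point per array, with the group mean as a line; filled points are the 11 arrays with high hepatocyte transcripts and open points the others. HFD is red, LFD blue and chow grey. The HFD points of Fam13a lie at 9.95 or below and its LFD points at 10.10 or above.

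The call at 8 weeks did not hold without HFD array 1, the lowest at 7.77, where the difference was −1.62 (limma adjusted p = 0.0602), and it held in the 7 fits that each left out another array of these groups. At 4 weeks Fam13a was called with array weights (−1.47, limma adjusted p = 0.0338). Values split by liver transcripts follow as a description, because they include the 12-week values that put Fam13a first. Among arrays of 8 and 12 weeks with high hepatocyte transcripts, 6 HFD arrays lay between 7.54 and 8.96 and 5 LFD arrays between 10.26 and 10.69. Among the others of these times, 2 HFD arrays were at 7.77 and 9.40 and 3 LFD arrays between 10.10 and 10.71. With that split as a block, the difference at 8 weeks was −1.87 (limma adjusted p = 0.0106). The 8-week arrays without those transcripts were HFD array 1 and LFD arrays 3 and 4, with a difference of −2.53. The part of liver transcripts in the Fam13a difference was not tested.

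RNA of cell type markers also differed by diet, while cell makeup itself was not measured. In bulk tissue fewer cells of a type and less RNA per cell cannot be told apart. The mean of 12 macrophage markers lay between 8.54 and 9.90 under HFD (median 9.06, n = 11) and between 7.95 and 8.70 under LFD (median 8.26, n = 12); 0, 7 and 9 of the 12 were called higher at 4, 8 and 12 weeks, times at which 0.212%, 2.4% and 4.46% of all genes were called. The mean of 14 of 15 adipocyte markers lay between 11.87 and 12.18 under HFD (median 12.02) and between 11.85, in the 4-week array with epididymis transcripts, and 12.31 under LFD (median 12.19). At 8 weeks, where Fam13a was called, this mean was 11.99 to 12.09 under HFD and 12.13 to 12.31 under LFD, with no overlap. Of single adipocyte markers, 1 of the 14, the glucose transporter gene Slc2a4, was called lower at 8 and 12 weeks. The mean of 12 progenitor and fibroblast markers, collagen genes among them, was higher under HFD without overlap at each time. Of the 12, 0, 0 and 2 were called higher at 4, 8 and 12 weeks. At 4 weeks the mean was 9.30 to 9.37 under HFD and 8.81, in the array with epididymis transcripts, to 9.19 under LFD. At 8 weeks it was 9.154 to 9.49 under HFD and 9.05 to 9.147 under LFD, so the groups nearly touched. At 12 weeks it was 9.21 to 9.36 under HFD and 8.82 to 9.16 under LFD. Of all single genes, 9.09%, 11.4% and 12.6% did not overlap at 4, 8 and 12 weeks, in either direction. These shares are of single genes, so they are no matched background for marker means. HFD array 1 at 8 weeks, lowest for Fam13a in its group, had the highest macrophage mean of all arrays, 9.90. HFD array 3 at 12 weeks, highest for Fam13a in its group, had a macrophage mean of 9.88. The part of cell makeup in the Fam13a difference was not tested.

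Chow arrays read 9.46 and 11.28, so the baseline covered a wider span than all LFD arrays together, and the lower one was the array with epididymis transcripts. By group means the order of Fam13a was LFD 12 weeks (10.56), LFD 4 weeks (10.54), LFD 8 weeks (10.40), chow (10.37), HFD 4 weeks (9.15), HFD 12 weeks (8.62) and HFD 8 weeks (8.52). Neighbours in this order overlapped in every case, including chow and HFD 4 weeks because of the low chow array. Within a diet, 8 against 4 weeks, Fam13a was at −0.62 ± 0.41 under HFD and −0.14 ± 0.38 under LFD, neither called (limma adjusted p = 0.734 and 0.895). At 12 against 4 weeks it was at −0.52 under HFD and 0.03 under LFD, given as a description because these use the 12-week arrays.

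The promoters of Fam13a and Lyplal1, the members whose diets did not overlap at any time, are shown from RefSeq (GRCm38.p6), each from 250 bases before to 50 bases after the annotated start. Capitals mark matches, on either strand, to the nuclear receptor half-site AGGTCA, the CCAAT box or the GC box GGGCGG; the E-box CACGTG and the TATA box TATAAA were searched in the same way and had no match in either window. None of the marked matches overlap. The Fam13a promoter is chr6:59024453-59024752, minus strand, and the Lyplal1 promoter is chr1:186117261-186117560, minus strand.
Fam13a: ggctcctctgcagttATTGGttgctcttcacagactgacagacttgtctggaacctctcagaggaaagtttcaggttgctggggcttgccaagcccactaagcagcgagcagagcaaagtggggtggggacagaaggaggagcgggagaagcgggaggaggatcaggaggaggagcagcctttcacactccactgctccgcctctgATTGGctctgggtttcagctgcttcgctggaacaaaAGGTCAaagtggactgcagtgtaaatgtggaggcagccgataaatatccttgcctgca
Lyplal1: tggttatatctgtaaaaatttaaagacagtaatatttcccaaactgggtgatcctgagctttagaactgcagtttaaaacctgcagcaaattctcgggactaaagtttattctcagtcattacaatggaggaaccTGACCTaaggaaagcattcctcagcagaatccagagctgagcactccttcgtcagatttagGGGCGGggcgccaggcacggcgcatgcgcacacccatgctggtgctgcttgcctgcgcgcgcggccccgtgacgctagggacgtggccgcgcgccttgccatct

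In the Fam13a window AGGTCA began 8 bases before the start, and CCAAT on the opposite strand began 235 and 44 bases before it. In the Lyplal1 window AGGTCA on the opposite strand began 115 bases before the start and GGGCGG 54 bases before it. AGGTCA was present in 16.3% of 32851 promoters of this length, CCAAT in 37.4%, GGGCGG in 35.7%, CACGTG in 7.15% and TATAAA in 13.6%. The Fam13a window held 55.0% G and C, against a median of 52.7% over all promoters, while those of its fellow members Grb14 and Cobll1 held 75.3% each. RefSeq promoters were at hand for 4 of the 6 members, and matches describe letters only.

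Lyplal1, the thioesterase-fold gene, was lower under HFD by a much smaller margin. At 4 weeks the HFD arrays read 8.12, 7.99 and 8.07, against 8.28, 8.17, 8.22 and 8.33 in the LFD arrays. At 8 weeks the HFD arrays read 7.83, 8.12, 7.89 and 8.17, against 8.47, 8.54, 8.23 and 8.29 in the LFD arrays. At 12 weeks the HFD arrays read 8.07, 8.05, 8.26 and 8.21, against 8.82, 8.85, 8.29 and 8.31 in the LFD arrays. At each time every HFD array was below every LFD array of that time. The difference was −0.19 ± 0.19 at 4 weeks, −0.38 ± 0.17 at 8 weeks and −0.42 ± 0.17 at 12 weeks, and limma called none of the 3 (adjusted p = 0.804, 0.320 and 0.208 in that order).

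Averaged over the 3 times, a comparison added after these values had been seen, Lyplal1 fell by 0.33 ± 0.10 (limma adjusted p = 0.0399), to 79.6% of the LFD level, where 10.5% of all genes were called and 4.44% were called lower. That call was lost in 15 of the 23 fits that each left out 1 array; it held without LFD array 2 at 4 weeks, HFD arrays 2 and 4 and LFD arrays 3 and 4 at 8 weeks, and HFD array 3 and LFD arrays 3 and 4 at 12 weeks. Liver transcripts moved with part of the pattern. The 5 LFD arrays of 8 and 12 weeks with high hepatocyte transcripts read 8.31 to 8.85 and the 3 others 8.23 to 8.29, whereas the 6 HFD arrays with them read 7.89 to 8.21 and the 2 others 7.83 and 8.26. At 12 weeks the Lyplal1 difference was −0.55 among arrays with high hepatocyte transcripts (limma adjusted p = 0.0398) and −0.03 between the single arrays of each diet without them. Among the 12-week arrays with high hepatocyte transcripts, the hepatocyte mean was 9.20 to 9.72 under HFD and 10.19 to 10.98 under LFD. That split therefore did not level liver transcripts between the diets. Over all arrays, the median diet difference of the hepatocyte genes was 1.8 at 8 weeks and −1.6 at 12 weeks. When the means of both marker lists, hepatocyte and epididymis, entered the fit, the averaged difference was −0.37 (limma adjusted p = 0.00498). The part of liver transcripts in the Lyplal1 values was not tested beyond these fits. Chow arrays read 9.17 and 8.04, the higher being the array with epididymis transcripts.

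**Figure D2:**
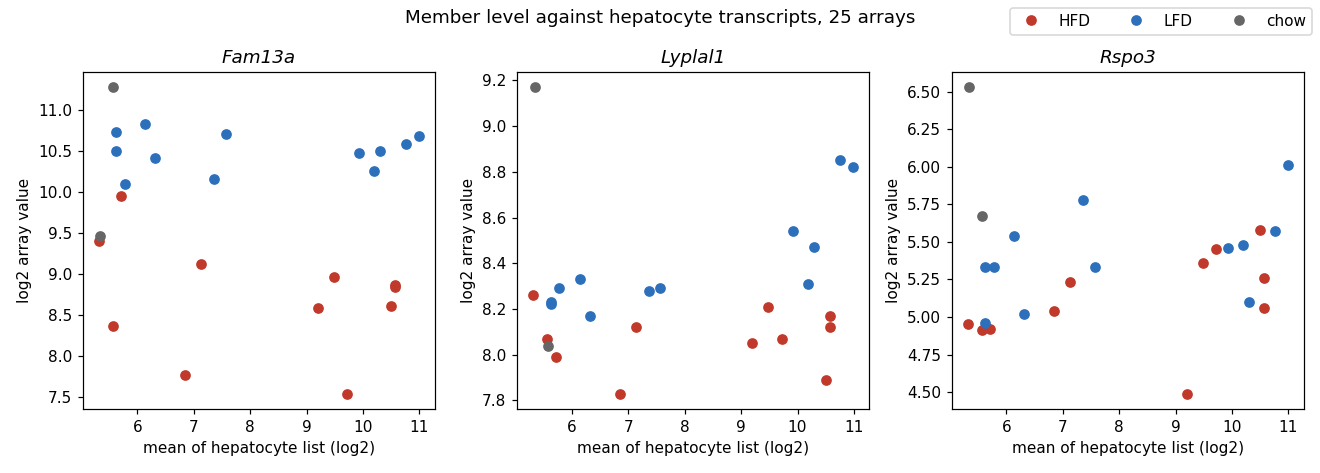
Log2 array value of Fam13a, Lyplal1 and Rspo3 (vertical axes) against the mean log2 value of the hepatocyte list (horizontal axes), 1 point per array for HFD (red), LFD (blue) and chow (grey). Fam13a separates by diet on both sides of the gap between 7.57 and 9.20, while the highest LFD values of Lyplal1, 8.82 and 8.85, lie at the right edge.

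Rspo3, the secreted Wnt agonist, had lower means under HFD at 4 and 12 weeks with overlapping arrays. The 4-week HFD arrays read 5.23, 4.92 and 4.91, against 5.78, 5.02, 5.33 and 5.54 in the LFD arrays. The 12-week HFD arrays read 5.45, 4.49, 4.95 and 5.36, against 6.01, 5.57, 5.33 and 5.48 in the LFD arrays. At 8 weeks the group means were 5.24 under HFD and 5.21 under LFD. The differences were −0.40 ± 0.24, 0.02 ± 0.22 and −0.54 ± 0.22 at 4, 8 and 12 weeks, none called, with limma adjusted p values of 0.646, 0.983 and 0.207. The averaged difference was −0.30 ± 0.13 (limma adjusted p = 0.163), and it passed once both marker means entered the fit (−0.34, limma adjusted p = 0.0473). The chow arrays, 6.53 and 5.67, held the highest value of all, again in the array with epididymis transcripts. Rspo3 lay below the array median of all clusters on 8 of the 25 arrays.

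Grb14, the insulin receptor adaptor, had higher means under HFD at the 2 later times, the opposite side from Fam13a. At 8 weeks the HFD arrays read 6.65, 6.08, 6.23 and 6.16, against 5.83, 6.01, 5.83 and 5.98 in the LFD arrays, with no overlap. At 12 weeks the HFD arrays read 6.94, 6.83, 6.51 and 6.30, against 6.67, 6.16, 6.35 and 6.24 in the LFD arrays, with overlap. The differences were −0.01 ± 0.19, 0.37 ± 0.18 and 0.29 ± 0.18 at 4, 8 and 12 weeks, and none was called (limma adjusted p = 0.996, 0.375 and 0.475 in that order). At 8 weeks the 95% interval ran from −0.01 to 0.74, so a rise of up to 0.74 is within the error. Chow arrays were among the lowest, at 5.77 and 5.94.

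Cobll1, the neighbour of Grb14, covered a narrow span of 8.30 to 9.04 over all arrays. Its group means were 8.66, 8.52 and 8.78 under HFD at 4, 8 and 12 weeks, against 8.86, 8.66 and 8.84 under LFD. The differences, −0.20 ± 0.15, −0.14 ± 0.14 and −0.06 ± 0.14, were within the spread between arrays (limma adjusted p = 0.743, 0.744 and 0.906). HFD array 1 at 12 weeks was the lowest of all for both Cobll1 (8.30) and Fam13a (7.54). Across the 25 arrays Cobll1 correlated with Fam13a at r = 0.53, and at r = 0.57 after the group means were removed, a description over arrays that share normalization. The corresponding r of Grb14 was −0.49, and −0.43 after the group means were removed. For Lyplal1, Rspo3 and Tbx15 r was 0.43, 0.28 and 0.06, and −0.21, −0.33 and −0.15 after the group means were removed. Over the 25 arrays, the highest 1% of named genes had r above 0.75.

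Tbx15, the T-box factor, stayed between 4.02 and 4.57 on every array and below the array median of all clusters on 25 of 25. Its diet differences were 0.01 ± 0.11, −0.00 ± 0.10 and −0.04 ± 0.10 at 4, 8 and 12 weeks, with limma adjusted p values of 0.984, 0.997 and 0.909. The widest 95% interval of the 3 ran from −0.21 to 0.24, at 4 weeks.

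**Figure D3:**
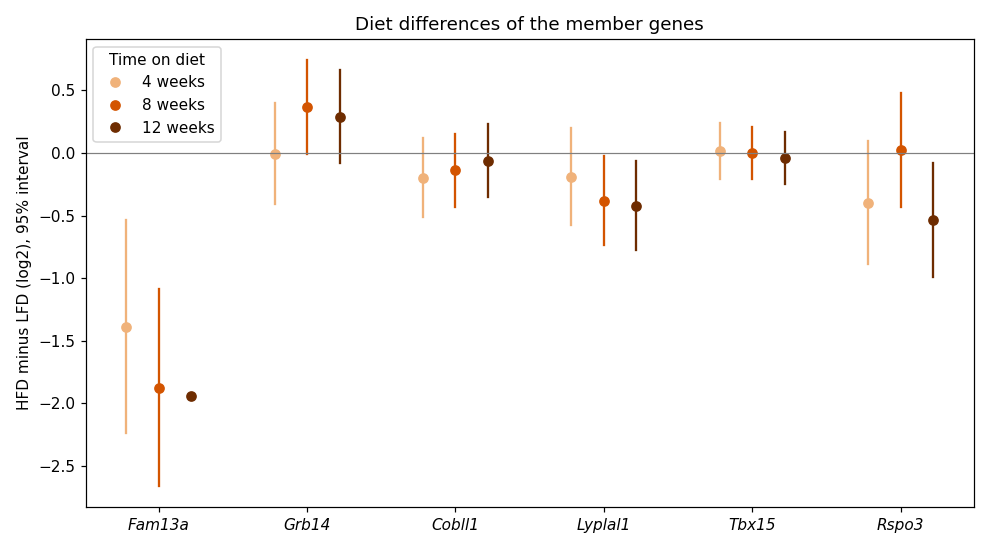
HFD minus LFD difference on the log2 scale (vertical axis) of the member genes at 4, 8 and 12 weeks, with the 95% interval of the limma fit as lines and 0 as the grey line; the 12-week point of Fam13a is a description and has no interval. The intervals of Fam13a lie below 0 at 4 and 8 weeks, while those of Tbx15 and Cobll1 cross 0 at each time.

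Without Fam13a, 0 of 5 members were called at 4, 8 or 12 weeks, and at an unadjusted limma p under 0.05 there were 0, 1 and 2. The analysis of variance named in the study's design was run with a fold limit of 1.5. No diet difference of the 5 reached that limit, so it could call none of them. The shares called among all genes were 0.212%, 2.4% and 4.46%, and those at an unadjusted p under 0.05 were 9.33%, 13.7% and 16.1%, so a count of 0 in 5 is near the background. Diets did not overlap for 1, 2 and 1 of the 5, against 9.09%, 11.4% and 12.6% of all genes in either direction and 4.41%, 6.42% and 5.08% lower under HFD. The median difference of the 5 was −0.19, −0.00 and −0.06, beside −0.00, −0.01 and −0.01 over all genes. The interaction of diet and time was called for 0 of these 5 by limma, with 0 at an unadjusted p under 0.05 (adjusted p from 0.896 to 0.992), and for 0% of all genes, with 5.41% at an unadjusted p under 0.05. Over time within a diet, 0 of these 5 were called by limma in any of 4 comparisons, where 0%, 0.573%, 0.636% and 0.681% of genes were called for 8 and 12 against 4 weeks under HFD and for 8 and 12 against 4 weeks under LFD. At an unadjusted p under 0.05 there was 1 such value, Grb14 at −0.39 ± 0.18 for 8 against 4 weeks under LFD, where all genes gave 15.5%; the shares in the other 3 comparisons were 8.85%, 11.2% and 15%. The hepatocyte list moved with time, with a median of 3.85 and 2.53 for these HFD comparisons and of 1.71 and 3.79 for the LFD ones.

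The close relatives of the members were set beside them. Of 12 paralogs, limma called 0 at 4 and 8 weeks, where 0 and 1 had an unadjusted p under 0.05, and 1 at 12 weeks: Fam13b, a relative of Fam13a, rose by 0.39 ± 0.11 (limma adjusted p = 0.0415), with means of 8.47 ± 0.10 under HFD and 8.08 ± 0.16 under LFD (SD, n = 4 each). Fam13c was at 0.15 ± 0.13 at that time. Grb10, like Grb14 an inhibitor of insulin receptor signalling, was at −0.21 ± 0.23, and Rspo1 was at −0.58 ± 0.24 (limma adjusted p = 0.228). At 8 weeks Fam13b was at 0.34 ± 0.11 (limma adjusted p = 0.101).

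The protein-coding genes next to the members in RefSeq were described the same way. Nap1l5 and Tigd2, on either side of Fam13a, were at 0.22 ± 0.22 and 0.07 ± 0.11 at 8 weeks and at 0.31 ± 0.22 and 0.06 ± 0.11 at 12 weeks, none called. Fign, which encodes a microtubule-severing enzyme and lies next to Grb14, fell by 0.84 ± 0.17 at 8 weeks (limma adjusted p = 0.0103), to a mean of 4.86 under HFD, against 5.71 under LFD, and was at −0.50 ± 0.17 at 12 weeks (adjusted p = 0.110). That HFD mean lay below the array medians, 5.04 to 5.36. At 8 weeks 2.4% of all genes were called. The other measured neighbours, Wars2, Slc38a11, Tgfb2, Spag17 and Cenpw, were not called at any time.

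Other genes near human fat distribution loci, a list of 35 written for this work with 33 measured, were called by limma in 0 cases at 4 weeks (6 at an unadjusted p under 0.05), 5 at 8 weeks (3 higher, 2 lower) and 6 at 12 weeks (4 higher, 2 lower). Over all genes the shares called were 0.212%, 2.4% and 4.46%, with 9.33% at an unadjusted p under 0.05 at 4 weeks, and the counts of the paralogs and of the lists that follow stand against the same shares. The median difference of the 33 was 0.03, −0.04 and 0.08 at 4, 8 and 12 weeks. Klf14, a Krüppel-like factor whose human locus is linked to adipocyte gene expression, rose by 0.88 ± 0.16 at 8 weeks (limma adjusted p = 0.00623) and by 0.67 ± 0.16 at 12 weeks (adjusted p = 0.0189). Ly86, a partner of an immune-cell receptor of the Toll-like family, rose by 0.96 ± 0.20 and 1.01 ± 0.20 at these times, times at which 7 and 9 of the 12 macrophage markers were called higher. Meis1, a homeobox factor, fell by 0.72 ± 0.16 and 0.62 ± 0.16, Klf13 fell by 0.57 ± 0.13 at 8 weeks, and Eya2 rose by 0.61 ± 0.14 at 12 weeks.

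These calls and those of Fam13b, Fign and the lists below, 19 in all, held in 19 cases with the hepatocyte split as a block and in 13 of 19 among arrays with high hepatocyte transcripts, a comparison added after the values had been seen. Those not called there were Klf14 at 8 and 12 weeks (0.76 and 0.45), Cpeb4 at both times, and Ly86 (0.79) and Hoxa7 (−0.48) at 8 weeks. The 12-week arrays with those transcripts still differed in hepatocyte mean, 9.20 to 9.72 under HFD and 10.19 to 10.98 under LFD. The arrays without those transcripts were HFD array 1 and LFD arrays 3 and 4 at 8 weeks, and HFD array 3 and LFD array 3 at 12 weeks. With a single HFD array at each time, no call is read from these few arrays, between which all 19 kept their sign. The 19 had been selected as called in the fit of all arrays, these included, so their signs are no separate support.

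Lists built around single members were counted in the same way. Of 17 genes of the insulin receptor and its partners, the setting in which GRB14 acts, 0 were called by limma at 4 weeks (1 at an unadjusted p under 0.05) and 2 were called lower at both 8 and 12 weeks. These were Pik3r1, the regulatory subunit of phosphoinositide 3-kinase (falls of 0.63 ± 0.15 and 0.87 ± 0.15), and Slc2a4, the insulin-responsive glucose transporter (falls of 1.08 ± 0.23 and 1.00 ± 0.23). The median of that list was 0.03, −0.15 and −0.21 in time order. Of 26 genes of R-spondin and Wnt signalling, 1 was called, the Wnt target Axin2, which rose by 0.87 ± 0.23 at 12 weeks (limma adjusted p = 0.0261), and the medians were 0.08, 0.00 and 0.01. Of 20 measured genes of depot patterning, 1 was called, Hoxa7, which fell by 0.66 ± 0.17 at 8 weeks (limma adjusted p = 0.0426), with medians of −0.04, −0.07 and −0.17. Of 8 acyl-protein thioesterases and related genes, 0 were called by limma at any time, 1, 0 and 1 had an unadjusted p under 0.05, and the medians were 0.10, −0.00 and 0.03.

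Genes with the pattern most like that of Fam13a were ranked by Pearson correlation of log2 values over the 25 arrays among 18698 named genes, as a description. The 6 highest were Acss3, a mitochondrial acyl-CoA synthetase (r = 0.95), Sfxn1, a mitochondrial serine transporter (0.95), Ralgapa2, the subunit of a GTPase-activating complex for Ral (0.94), Pde1a, a cyclic nucleotide phosphodiesterase (0.93), Acacb, the acetyl-CoA carboxylase of the mitochondrial surface (0.92), and Aldh6a1, an enzyme of valine breakdown (0.92). The median r of all genes was 0.00 and the highest 1% lay above 0.75. After the group means were removed, these 6 had r between 0.78 and 0.88, and among the 14 arrays without high hepatocyte transcripts between 0.87 and 0.97. They were picked for a high r over these same arrays, so the later values are no separate support. By 4 other measures of likeness, 0 to 3 of these 6 were among the first 6. Acss3 had means of 9.19 ± 0.30, 8.88 ± 0.27 and 8.77 ± 0.34 under HFD at 4, 8 and 12 weeks, against 9.85 ± 0.07, 9.63 ± 0.15 and 9.58 ± 0.20 under LFD (SD, n = 3 or 4). The 3 most opposite genes were Tuba1c, an alpha-tubulin (r = −0.91), Lipf, known as gastric lipase (−0.90), and Fam114a1 (−0.90). Lipf had means of 6.06 ± 0.56, 6.48 ± 1.01 and 6.68 ± 0.26 under HFD, against 4.38 ± 0.43, 4.70 ± 0.23 and 4.71 ± 0.66 under LFD.

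**Figure D4:**
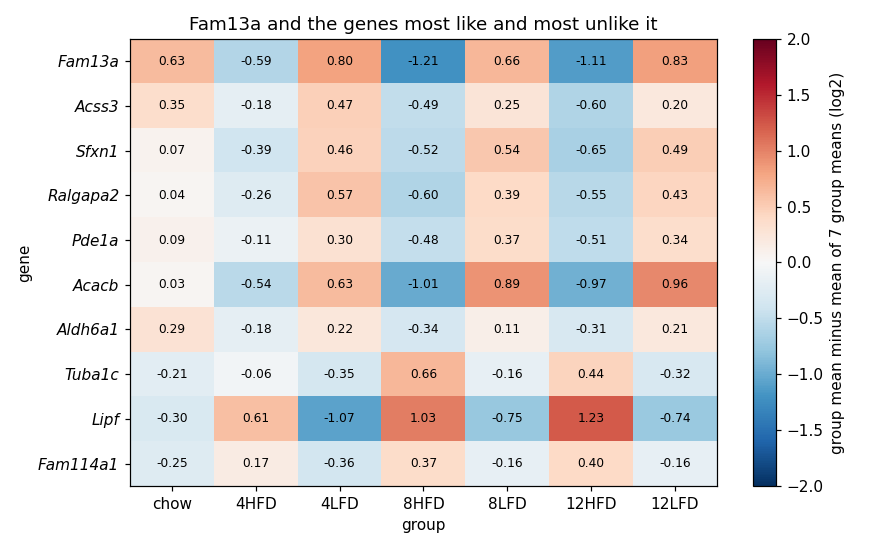
Group means of Fam13a, the 6 genes most like it and the 3 most opposite (rows) in the 7 groups (columns), each as the log2 difference from the mean of that gene's 7 group means, printed in the cell and coloured from blue (lower) to red (higher). Fam13a and the 6 genes under it are below 0 in each HFD group and above 0 in each LFD group, and the 3 last rows, apart from Tuba1c at 4 weeks of HFD, run the other way.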

How the data were processed

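The authors deposited log2 array values of 34472 transcript clusters, and the design text names Transcriptome Analysis Console 4.0.2 as their software. The log2 scale was judged from the values; for background correction and normalization the sources used here give no method. Of the clusters, 23521 had 1 gene symbol in the platform annotation, and the highest-mean cluster of a symbol gave 22180 genes. limma 3.58.1 in R 4.3.3 fitted 7 group means to all 25 arrays (18 residual degrees of freedom), with no filter on intensity. The design text's analysis of variance was run as an alternative. Simulated data of 22180 genes had independent normal noise, with a single SD for each gene pooled over the groups. Unequal spread between diets and liver transcripts moving together within an array were therefore not simulated, and the rates hold for that setting. In it the fit for 8 weeks recovered 37.3%, 89.6% and 98.5% of genes changed 1.5-, 2- and 4-fold. False calls made up 7.98%, 1.96% and 5.66% of calls at 4, 8 and 12 weeks.

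The members, the 13 gene lists and the alternatives were chosen with earlier results of these data known. Named genes were the members, 12 paralogs, coding neighbours, up to 4 called genes of a list and comparison with the smallest p, and the 6 most like and 3 most opposite genes. Of the marker lists, progenitor and fibroblast genes (12 measured) were called higher in 0, 0 and 2 cases at 4, 8 and 12 weeks. Mesothelial (10), endothelial (10) and epididymis (13 measured) genes were called in 0 cases by limma at each time, and over the 3 lists and 3 times 1 mesothelial gene at 4 weeks had an unadjusted p under 0.05. The hepatocyte list had 1 gene called lower at 12 weeks. Replicate numbers were not used as pairs. Of 11 same-numbered pairs, 5 had deviations correlated above 0.1 (range −0.61 to 0.60). Differently numbered pairs were not compared, so these values cannot settle whether the numbers pair samples. The arrays with epididymis transcripts all carried replicate number 1. Each array is a separate mouse per the labels, and 2 to 4 arrays a group limit the precision.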

Additional observations from a re-analysis of the deposited data

Results flagged for a closer look

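Among 30 groups of 4 arrays examined over the 6 members, 1 held an array far from its fellows: Fam13a read 10.1 in LFD 8-week array 4, where the other 3 LFD arrays of that time read 10.48 to 10.50. By the 95% critical value of Dixon's test that was used, chance marks about 1 in 20 such groups. That array lay above all HFD arrays, and leaving it out kept the Fam13a call at 8 weeks.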

How the results depend on the processing

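Fam13a stayed lower under HFD in every fit run. At 8 weeks it was called except among arrays without high hepatocyte transcripts, which leaves 1 HFD and 2 LFD arrays (−2.53), and without HFD array 1; the leave-one-out range was −1.99 to −1.62. At 4 weeks it was called with array weights (−1.47) and by the analysis of variance without adjustment (−1.39), and leaving out 1 array gave −1.79 to −1.0. At 12 weeks it was −2.20 to −1.58 leaving out 1 array and −1.31 between the single arrays without high hepatocyte transcripts. Of the other members, 1 was called at 12 weeks without chow array 1, HFD 4-week array 1 and LFD 4-week array 1, and 1 among arrays with high hepatocyte transcripts, Lyplal1 in both. For the average over times the number called was 1. It was 0 with arrays centred on their medians (Lyplal1 at −0.32) and 0 among arrays without high hepatocyte transcripts (−0.22). With the covariates it was 2, and when 1 array was left out 0 to 1 (−0.36 to −0.30). By the analysis of variance it was 0 (−0.33), because no averaged difference of these members reached its fold limit. The shares of all genes called in these alternative fits are not given here, so the counts have no background beside them. Differences near 0 changed sign. Grb14 at 4 weeks was at 0.043 with arrays centred, at 0.044 with array weights and at −0.21 to 0.13 leaving out 1 array. Rspo3 at 8 weeks was at −0.027 with quantile normalization, −0.025 with arrays centred, −0.032 with the hepatocyte split as a block, −0.070 with covariates, −0.105 among arrays without high hepatocyte transcripts and −0.093 to 0.105 leaving out 1 array. Tbx15 at 8 weeks was at 0.023, 0.039, 0.068 and 0.0050 with the split, the covariates, arrays with and arrays without high hepatocyte transcripts, and leaving out 1 array gave −0.061 to 0.055 at 8 weeks, −0.033 to 0.090 at 4 weeks and −0.10 to 0.0058 at 12 weeks. Cobll1 at 12 weeks was at 0.17 among arrays without high hepatocyte transcripts and at −0.16 to 0.096 leaving out 1 array. The cause of these changes was not tested. With the replicate number as a replicate block, Fam13a was at −1.36 at 4 weeks and −1.87 at 8 weeks, and no call changed. Of the 6 genes most like Fam13a, 0 were among the first 6 by group means, 3 by arrays without high hepatocyte transcripts, 1 by Spearman correlation and 2 by deviations from group means.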
